A study of Rattus norvegicus with 15 samples.

Results

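The genes described here are the enzymes and carriers of fatty acid oxidation in mitochondria and in peroxisomes, in livers of male Wistar rats with and without cirrhosis. They were chosen by symbol from a list of 43 genes of beta-oxidation, the carnitine shuttle, peroxisomal oxidation and ketogenesis. Of these, 41 had a row in the counts table of 32623 genes, 20 of the mitochondrial arm, 13 of the peroxisomal arm and 8 that act in both compartments or in another one. Decr2 and Eci2 were not analysed here. Of the 41 genes, 40 passed the filter on low counts, beside 14417 genes of the whole table, and Acot1 did not.

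Rats of the control group (n = 4) are labelled as control, and no treatment of theirs is described. Rats of the cirrhosis group (n = 5) inhaled carbon tetrachloride (CCl4), a hepatotoxin that injures hepatocytes around the central vein, for 12 weeks and drank water with phenobarbital at 0.35 g/L, a drug known to induce drug-metabolizing enzymes of the liver. Rats of the group cirrhosis & eplerenone (n = 5) had the same CCl4 and phenobarbital and were given eplerenone, an antagonist of the mineralocorticoid receptor (MR), by mouth in hazelnut spread at 100 mg per kg body weight from week 8 to week 12. Livers of CCl4-treated rats were taken 7 to 10 days after the last CCl4, so that phenobarbital went with CCl4 in each such rat and the effects of these agents cannot be told apart. Ages were not given beyond matching between groups, and whether the other groups ate the spread was not stated. As the study states, the animals sequenced were picked by how well cirrhosis induction or eplerenone treatment had worked in them. The values therefore describe picked livers, and p-values measure the spread between them only. A further library labelled as control was not analysed here.

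Fatty acids are activated to acyl-CoA by acyl-CoA synthetases. Long-chain acyl groups then cross into mitochondria as carnitine esters and are shortened in repeated rounds of dehydrogenation, hydration, a second dehydrogenation and thiolysis, with electrons passed on through the electron transfer flavoprotein. Peroxisomes take up very long-chain and branched-chain acyl-CoA and bile acid precursors, shorten them with oxidases that give hydrogen peroxide, and hand the products on. In the liver many genes of both arms are known targets of the nuclear receptor PPARα, which binds as a heterodimer with RXR to a direct repeat with a 1-base spacer.

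The promoters of the genes were therefore searched for that repeat. Promoters of 250 bases before to 50 bases after the annotated start (RefSeq, build GRCr8, while the reads were counted on build rn6) were at hand for 39 of the 43 genes. The repeat written AGGNCANAGGNCA, searched on both strands, was found in 0 of 39 promoters of the listed genes, in 0.328% of 10064 promoters of tested genes and in 0.415% of all 33469 promoters. With up to 2 mismatches to the 12 fixed letters of a repeat of AGGTCA with any base between the copies, a looser search chosen after the exact one, 9 of 39 promoters held a match, or 23.1%, beside 2.84% of promoters of tested genes and 3.77% of all promoters. Among listed genes with a promoter at hand, a match was present in 4 of 13 that passed the test in cirrhosis against control. It was present in 5 of 23 that were tested and did not pass. The stretches around the match in those 4 genes are shown because they belong to genes whose RNA was lower in cirrhosis. Each is written 5′ to 3′ on the strand of its gene, with the match in capitals, at chr2:24721820-24721900 (plus strand) for Acot12, chr2:61673093-61673173 (plus strand) for Amacr, chr6:109399807-109399853 (plus strand) for Acot4 and chr8:64788073-64788153 (minus strand) for Etfa, all upstream of the start.
Acot12: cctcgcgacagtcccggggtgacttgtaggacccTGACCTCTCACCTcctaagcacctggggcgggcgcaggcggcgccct
Amacr: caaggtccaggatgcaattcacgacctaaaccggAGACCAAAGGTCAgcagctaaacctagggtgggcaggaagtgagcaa
Acot4: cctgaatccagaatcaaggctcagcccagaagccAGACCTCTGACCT
Etfa: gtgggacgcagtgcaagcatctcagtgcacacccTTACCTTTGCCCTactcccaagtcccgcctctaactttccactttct
The matches in Acot12 and Acot4 differed from the repeat by 1 letter and those in Amacr and Etfa by 2, and all but that of Amacr lay on the strand opposite to the gene. In the promoters of Acadvl, Acot8, Crat, Echs1 and Slc25a20, whose RNA did not pass the test, a match was present as well. A match is only a description of the letters in these windows.

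Libraries held 16157491 to 21574767 counted reads. Levels are given as FPM, counts per 1e6 reads of the TMM-scaled library, and 3 reads correspond to 0.121 to 0.191 FPM. On the first principal component of the 500 most variable genes, which held 66.6% of the variance, cirrhosis rat 5 lay at -13.0 while the other cirrhosis rats lay between 38.0 and 47.7. Cirrhosis & eplerenone rat 3 lay at 42.6, while the other rats of its group lay between -26.8 and 18.5. Results are therefore also given without this pair of livers. Hepatocyte markers were abundant in each liver. Summed over 7 of them, control livers had 172273 to 199341 FPM and cirrhosis livers 135431 to 188764 FPM. With eplerenone the sums were 102569 to 192659 FPM. All 6 cholangiocyte markers and 5 of 7 markers of stellate cells and myofibroblasts were differentially expressed genes (DEG, defined with the first comparison) with higher levels in cirrhosis.

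In cirrhosis, RNA of 12 fatty acid oxidation genes was lower than in control, and 7 of these genes belong to the peroxisomal arm. Of 40 genes tested, 13 were DEG, that is with an adjusted p (false discovery rate, FDR) under 0.05 by edgeR as well as by DESeq2, 12 of them lower and 1, Abcd2, higher. Abcd2 passed the filter on low counts only through CCl4-treated livers. Among all 14417 genes, 20.1% were DEG in this comparison, with 6.67% lower and 13.4% higher. In the peroxisomal arm 7 of 13 genes tested fell (Amacr, Pex11a, Acox2, Ehhadh, Acot4, Hsd17b4 and Abcd3), in the mitochondrial arm 3 of 20 (Etfdh, Hadh and Etfa) and among the others 2 of 7 (Acsl1 and Acot12). Amacr was counted in the peroxisomal arm, although the study describes it as serving beta-oxidation in mitochondria too. The median log2FC was -0.61 in the mitochondrial arm, -0.93 in the peroxisomal arm and -0.48 in the others, beside -0.01 over all genes. The log2FC was below 0 for 37 of the 40 genes, whereas 49.3% of all genes had one above 0. DESeq2 alone gave 18 of the 40 genes, beside 27.8% of all genes. The lowest control lay above the highest cirrhosis liver in 13 of the 40 genes, beside 9.04% of all genes. Because this is whole liver, fewer hepatocytes and less RNA per hepatocyte cannot be told apart.

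**Figure D1:**
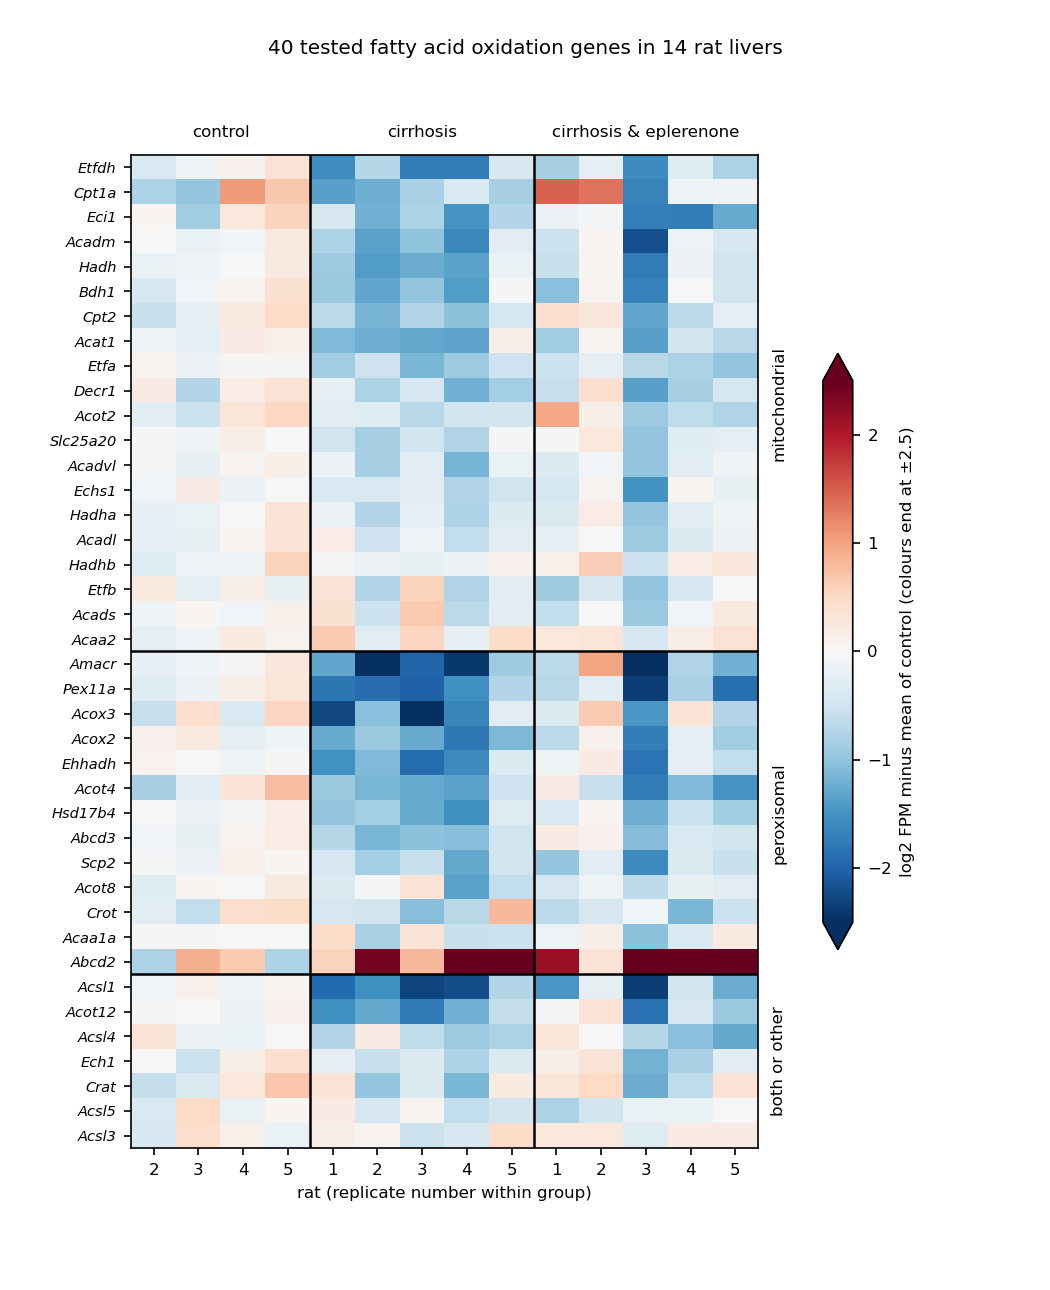
Level of each of the 40 tested genes (rows) in each of 14 livers (columns), as log2 FPM minus the mean of the control rats, with blue for lower and red for higher values and colours ending at ±2.5. Blue prevails in the 5 cirrhosis columns and in all cirrhosis & eplerenone columns but that of rat 2, and it is deepest in rat 3 of that group, while Abcd2 stands out in red.

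The mitochondrial arm begins with the carnitine shuttle. Cpt1a (carnitine palmitoyltransferase of the outer membrane, the regulated entry step) had 61.9, 54.7, 222 and 171 FPM in control rats 2 to 5. In cirrhosis rats 1 to 5 it had 41.7, 45.8, 60.9, 81.7 and 60.0 FPM, and in cirrhosis & eplerenone rats 1 to 5 it had 298, 273, 33.4, 99.3 and 100.7 FPM. The control rats themselves fell into a lower and a higher pair, and the cirrhosis values overlapped the lower pair. The log2FC in cirrhosis was -1.14 with a standard error (SE) of 0.53 and an FDR of 0.134 (edgeR), so that the largest difference in the shuttle did not pass the test. Cpt2 (the palmitoyltransferase of the inner membrane) had a log2FC of -0.85 with an SE of 0.31 and an FDR of 0.0620 by edgeR and 0.0399 by DESeq2. The carnitine-acylcarnitine carrier Slc25a20 had a log2FC of -0.49 with an FDR of 0.117 (edgeR).

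The DEG of the mitochondrial arm lie at the electron transfer from the acyl-CoA dehydrogenases and at the second dehydrogenation. Etfdh (ENSRNOG00000009538, chromosome 2), which passes electrons from the flavoprotein to ubiquinone, had 157, 192, 223 and 266 FPM in control and 70.5, 125, 61.5, 61.3 and 156 FPM in cirrhosis. Each cirrhosis liver lay below each control liver, although rat 5 came within a few FPM of the lowest control. Its log2FC was -1.14 with an SE of 0.32 and an FDR of 0.0230 by edgeR and 0.00467 by DESeq2. Etfa (ENSRNOG00000015233, chromosome 8), the alpha subunit of the flavoprotein, had 354, 303, 342 and 340 FPM in control and 182, 232, 151, 177 and 233 FPM in cirrhosis. The groups lay well apart, and log2FC was -0.78 with an SE of 0.19 and an FDR of 0.0117 (edgeR). The beta subunit Etfb behaved differently, with 278 to 384 FPM in control and 193 to 478 FPM in cirrhosis and a log2FC of -0.09 with an SE of 0.29. Hadh (ENSRNOG00000010697, chromosome 2), the dehydrogenase for medium- and short-chain hydroxyacyl-CoA, had 381, 401, 428 and 509 FPM in control and 228, 163, 182, 170 and 382 FPM in cirrhosis. Only rat 5 reached the control range, and the log2FC of -0.94 (SE 0.32) had an FDR of 0.0495 in edgeR, at the threshold.

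The other mitochondrial genes did not pass the test in both tools. The acyl-CoA dehydrogenases differed among themselves: log2FC was -0.94 for medium-chain Acadm (SE 0.36, edgeR FDR 0.0717), -0.46 for very long-chain Acadvl (SE 0.24), -0.26 for long-chain Acadl (SE 0.22) and 0.00 for short-chain Acads (SE 0.29). Acadm was lower in each cirrhosis liver, at 202 to 509 FPM, than in each control, at 548 to 728 FPM. The trifunctional protein, which carries out the later steps for long chains, had a log2FC of -0.44 for Hadha and -0.12 for Hadhb, a pair that lies side by side on chromosome 6. The thiolase Acaa2 had the highest log2FC of the arm at 0.27 with an SE of 0.24, with 355, 395, 486 and 445 FPM in control and 653, 349, 608, 354 and 572 FPM in cirrhosis. Bdh1 and Acat1, enzymes of ketone body metabolism, had log2FC of -0.88 (SE 0.35) and -0.83 (SE 0.32), with edgeR FDR of 0.0820 and 0.0773. In 4 of the 5 cirrhosis livers Acat1 had 110 to 128 FPM, whereas rat 5 had 311 FPM, within the control range of 237 to 318 FPM.

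**Figure D2:**
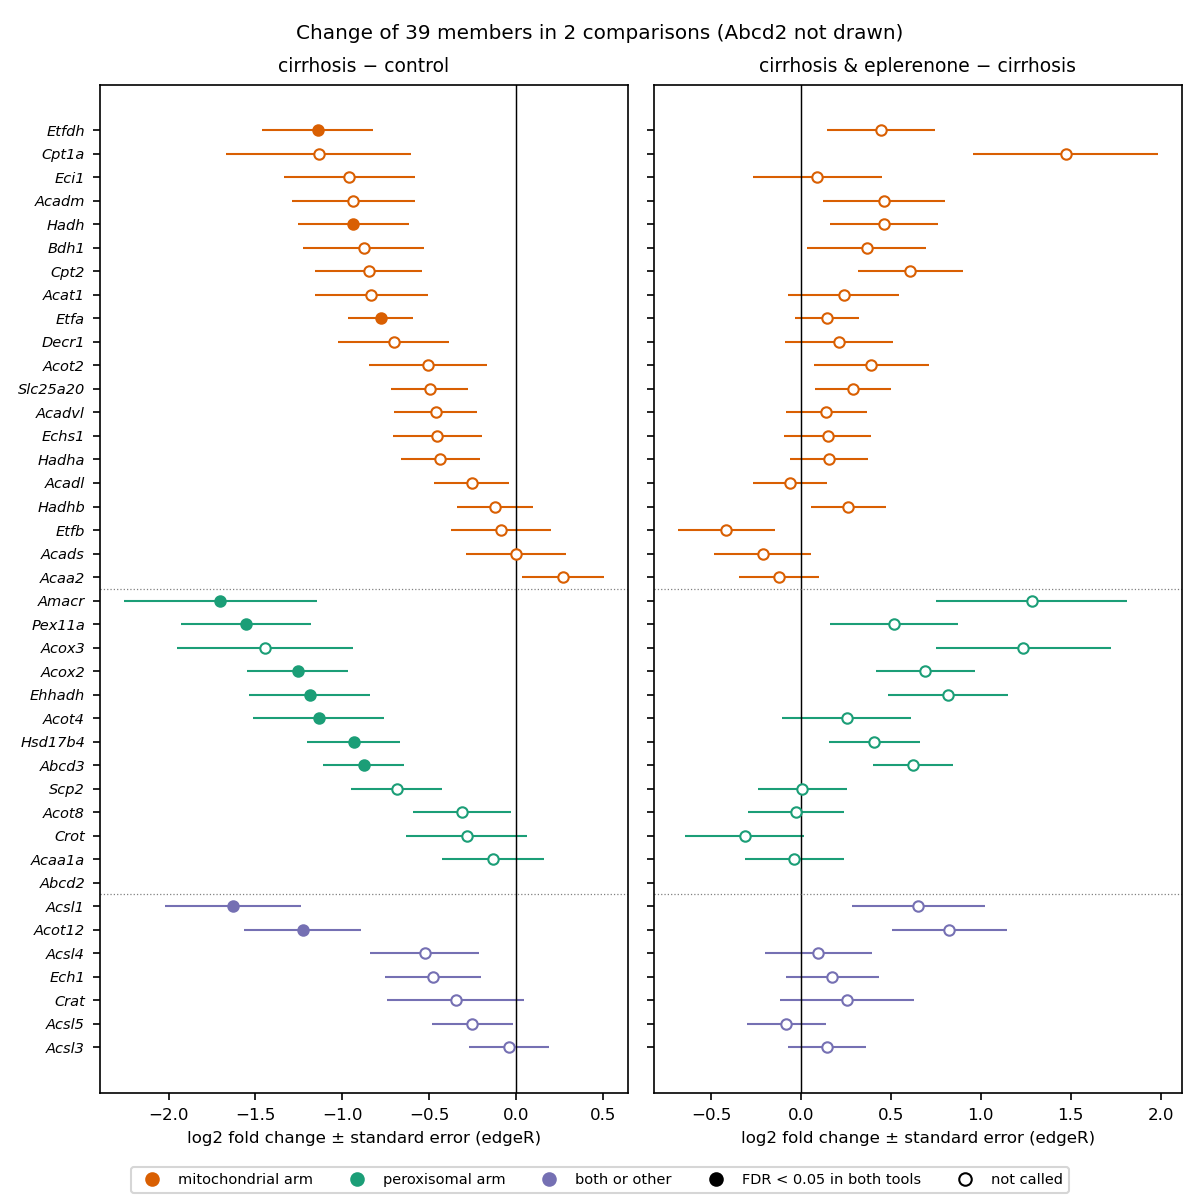
The log2FC of 39 tested genes with the SE of edgeR as bars, for cirrhosis against control on the left and cirrhosis & eplerenone against cirrhosis on the right, with filled points for an FDR below 0.05 in both tools. Abcd2 is not drawn because its control libraries held only 0 to 4 reads, 12 points are filled on the left and 0 on the right.

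In the peroxisomal arm, the 7 genes that fell include a transporter for uptake, an oxidase, both bifunctional enzymes and the racemase for branched chains. Abcd3 (ENSRNOG00000011929, chromosome 2), a transporter of acyl-CoA in the peroxisomal membrane, had 172, 159, 192 and 205 FPM in control and 110, 81.4, 88.7, 87.1 and 128 FPM in cirrhosis. The groups did not overlap, and log2FC was -0.88 with an SE of 0.23 and an FDR of 0.0191 (edgeR). Acox2 (ENSRNOG00000007378, chromosome 15), the oxidase for branched-chain acyl-CoA and bile acid intermediates, had 616, 672, 493 and 535 FPM in control and 241, 301, 240 and 167 FPM in cirrhosis rats 1 to 4 with 262 FPM in rat 5. Here rat 5 lay among the other cirrhosis livers, and log2FC was -1.26 with an SE of 0.29 and an FDR of 0.00955 (edgeR). The related oxidase Acox3 had 86.3 to 186 FPM in control and 13.69 to 107 FPM in cirrhosis. With overlapping groups its log2FC of -1.44 (SE 0.51) had an FDR of 0.0558 in edgeR and 0.0193 in DESeq2, so it was not a DEG.

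Ehhadh (ENSRNOG00000001770, chromosome 11) and Hsd17b4 (ENSRNOG00000015840, chromosome 18) encode the bifunctional enzymes that follow the oxidases. Ehhadh had 219, 210, 190 and 213 FPM in control, a narrow range, and 72.3, 96.9, 54.9, 68.9 and 163 FPM in cirrhosis. Its log2FC was -1.19 with an SE of 0.35 and an FDR of 0.0292 (edgeR). Hsd17b4 had 432, 388, 420 and 489 FPM in control and 219, 240, 179, 150 and 346 FPM in cirrhosis. Both genes were lower in each cirrhosis liver than in each control, with rat 5 closest to the controls, and the log2FC of Hsd17b4 was -0.93 with an SE of 0.27 and an FDR of 0.0258 (edgeR). The last step differed: the thiolase Acaa1a had 437 to 461 FPM in control and 259 to 624 FPM in cirrhosis with a log2FC of -0.13 (SE 0.29). Scp2, which carries a thiolase for branched chains and a sterol carrier, had 1737 to 2080 FPM in control and 791 to 1436 FPM in cirrhosis without overlap, and its log2FC of -0.69 (SE 0.26) had an FDR of 0.0726 in edgeR and 0.0357 in DESeq2.

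Amacr (ENSRNOG00000018662, chromosome 2), the racemase that prepares branched-chain acyl-CoA and bile acid intermediates for the oxidases, had the largest fall of all 40 genes. It had 450, 486, 528 and 636 FPM in control and 213, 87.2, 131, 97.1 and 279 FPM in cirrhosis. The groups did not overlap, at 525 ± 80.5 FPM in control (SD, n = 4) and 161 ± 82.3 FPM in cirrhosis (SD, n = 5). The log2FC was -1.70 with an SE of 0.56 and an FDR of 0.0435 by edgeR and 0.00937 by DESeq2. Pex11a (ENSRNOG00000015003, chromosome 1), a membrane protein that takes part in peroxisome division, had 15.9, 17.6, 21.8 and 24.0 FPM in control and 5.54, 5.14, 4.74, 6.71 and 11.7 FPM in cirrhosis. Each cirrhosis liver was again below each control, with a log2FC of -1.55, an SE of 0.38 and an FDR of 0.0119 (edgeR).

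Of the thioesterases, which release free fatty acids from acyl-CoA, Acot4 (ENSRNOG00000046864, chromosome 6) had 16.3, 24.0, 36.4 and 49.5 FPM in control and 15.1, 13.1, 12.0, 11.4 and 20.2 FPM in cirrhosis. The groups overlapped, and log2FC was -1.14 with an SE of 0.38 and an FDR of 0.0460 (edgeR). Acot4 lies in a cluster with Acot2, Acot1, Acot3, Acot5 and Acot6, and reads that matched several places were counted at each, so the split of reads between these similar genes is uncertain. Acot1 held 4 to 12 reads per control library, 1 to 11 per cirrhosis library and 0 to 9 per library of cirrhosis & eplerenone and was not tested. Acot8 had a log2FC of -0.31 (SE 0.28), and Crot, which makes carnitine esters of medium-chain products for export, one of -0.28 (SE 0.35).

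Abcd2 (ENSRNOG00000015538, chromosome 7), a transporter for very long-chain acyl-CoA related to Abcd3, was the only gene of the list called higher in cirrhosis. It passed the filter on low counts only through CCl4-treated livers, the groups in which it was high. Its reads numbered 0, 4, 3 and 0 in control rats 2 to 5, and 3, 21, 4, 167 and 55 in cirrhosis rats 1 to 5. The groups overlapped, and the summed 250 reads of the cirrhosis group came mostly from rats 4 and 5. The FDR was 0.0310 by edgeR and 0.000796 by DESeq2, and no fold is given because control lay at the level of a few reads. Given how the gene met the filter, these FDRs are not taken as support for a rise. In cirrhosis & eplerenone the gene held 14, 2, 111, 30 and 50 reads. It was a DEG in 9 of 14 fits that left out 1 liver each.

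**Figure D3:**
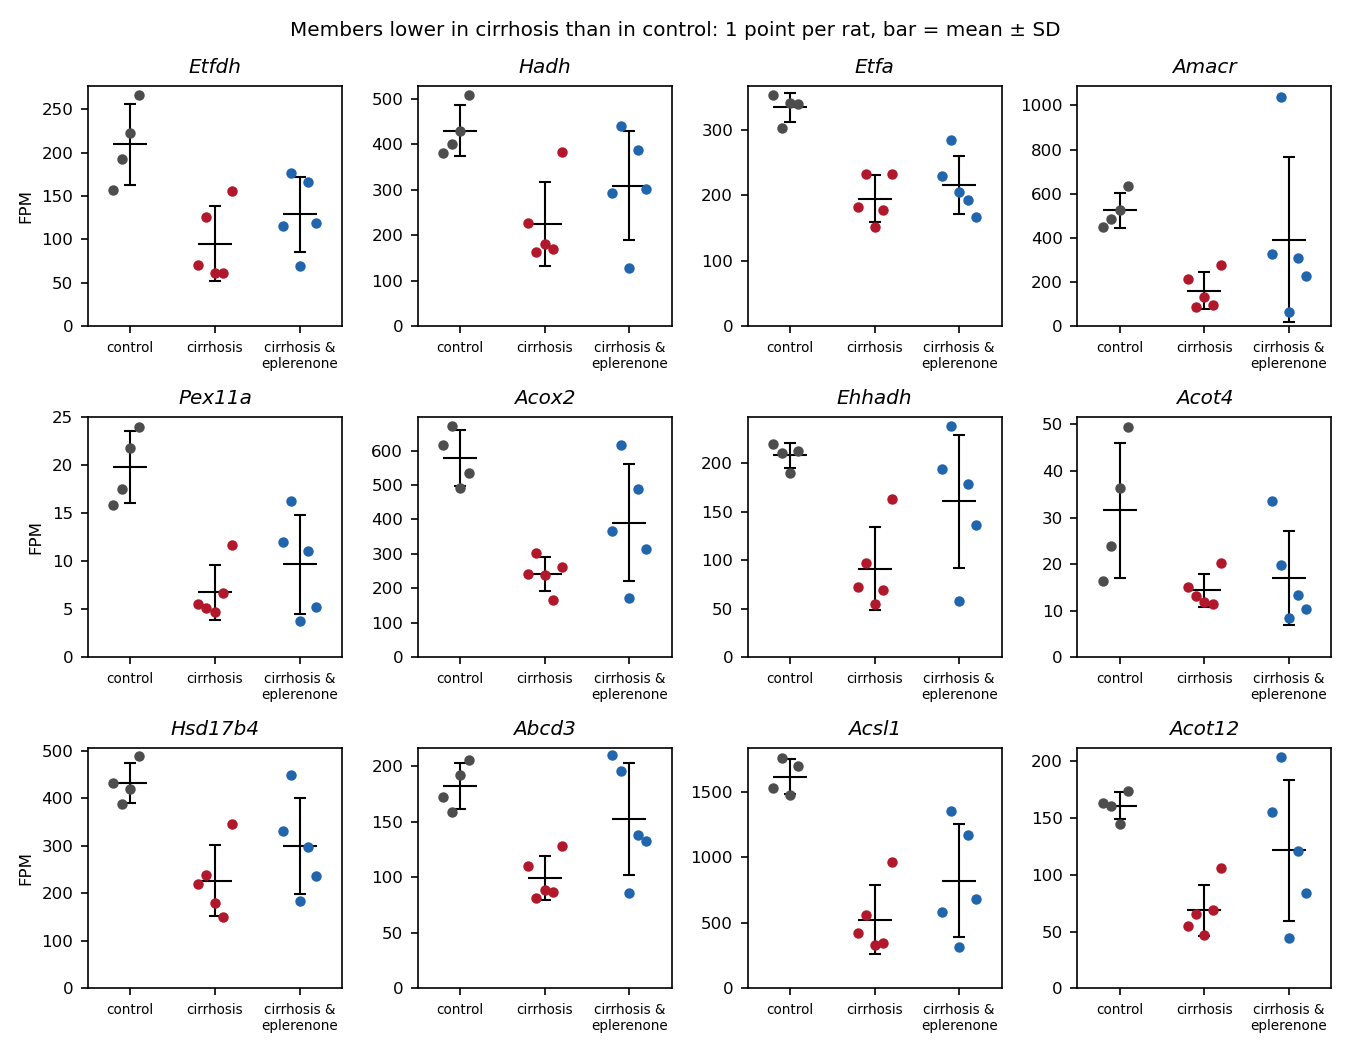
FPM (vertical axes starting at 0) of the 12 genes that were lower in cirrhosis than in control, with 1 point per liver and mean ± SD as bars (n = 4 control, 5 cirrhosis, 5 cirrhosis & eplerenone). The cirrhosis points lie below the control points except for single livers of Hadh and Acot4, and the points of cirrhosis & eplerenone overlap those of cirrhosis in all 12 genes and those of control in all but Etfa and Acsl1. For Amacr they run from 62.7 to 1037 FPM.

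Among the genes of both or other compartments, Acsl1 (ENSRNOG00000010633, chromosome 16), the main acyl-CoA synthetase of the liver, had 1531, 1762, 1481 and 1699 FPM in control and 419, 557, 328, 348 and 967 FPM in cirrhosis. The groups did not overlap, and log2FC was -1.63 with an SE of 0.39 and an FDR of 0.0116 (edgeR). The other synthetases moved less: log2FC was -0.52 for Acsl4 (SE 0.31), -0.25 for Acsl5 (SE 0.23) and -0.04 for Acsl3 (SE 0.23). Acsl3 had 10.8 to 19.2 FPM in control and 9.70 to 19.7 FPM in cirrhosis. Acot12 (ENSRNOG00000061414, chromosome 2), a cytosolic acetyl-CoA hydrolase, had 163, 161, 145 and 174 FPM in control and 55.2, 65.8, 47.1, 69.2 and 106 FPM in cirrhosis. These groups lay apart too, with a log2FC of -1.23, an SE of 0.34 and an FDR of 0.0215 (edgeR). Ech1 and Crat had log2FC of -0.48 (SE 0.28) and -0.35 (SE 0.39).

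How many genes were DEG depended on single livers. With 1 liver left out, Acox2, Acsl1, Etfa and Pex11a were DEG in each of 14 fits, Abcd3 in 13, Acot12 in 11, Etfdh in 9, Hsd17b4 in 8, Ehhadh in 7, Acot4 in 6, Amacr in 4 and Hadh in 3. The share of all genes called moved with the same livers. The number of DEG on the list was 4 without control rat 5, about the share of all genes, of which 9.22% were called in that fit. It was 6 without control rat 4 (12% of all genes) or without cirrhosis rat 1, 3 or 4 (12.9%, 12.2% and 12.6%). It was 8 without control rat 2 (13.4%) or 3 (10.6%). It was 19 without cirrhosis rat 5 (32%) and 18 without cirrhosis & eplerenone rat 3 (22.7%). With both of the livers that stood apart left out, 21 genes were DEG, 20 of them lower, beside 34.1% called and 14.8% lower among all genes in that fit. These were 8 genes of the mitochondrial arm, 11 of the peroxisomal arm and 2 of the others. Cirrhosis rat 5 was the cirrhosis liver nearest to control on the first principal component. Leaving it out therefore widens cirrhosis against control by construction.

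In each cirrhosis liver, the median over the mitochondrial genes of log2 FPM relative to control lay between -0.84 and -0.28, and the control livers lay between -0.16 and 0.29. For the peroxisomal genes these medians were -1.35 to -0.50 in cirrhosis and -0.21 to 0.18 in control. The mitochondrial median minus the peroxisomal one was 0.05 ± 0.08 in control (SD, n = 4) and 0.42 ± 0.22 in cirrhosis (SD, n = 5). In each of the 5 cirrhosis livers, from 0.17 to 0.67, it was above the highest control. In cirrhosis & eplerenone it was 0.14 ± 0.18 (SD, n = 5), from -0.03 to 0.36, and overlapped both other groups. The same median over the hepatocyte markers was -0.12 to 0.09 in control and -0.72 to -0.09 in cirrhosis, and 1 of the 7 markers, Serpinc1, was a lower DEG. The markers did not all move together: log2FC was below 0 for 5 of the 7 and above 0 for 2, and ran from -0.71 to 0.74. The cholangiocyte median was -0.47 to 0.50 in control and 1.41 to 3.31 in cirrhosis, and that of stellate cells and myofibroblasts -0.47 to 0.35 and 0.60 to 2.74. Cirrhosis rat 5, with the highest level of its group in 20 of the 40 fatty acid oxidation genes and the lowest in 0, had the lowest cholangiocyte and stellate cell medians of its group. The part of cell composition in the lower levels was not tested.

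**Figure D4:**
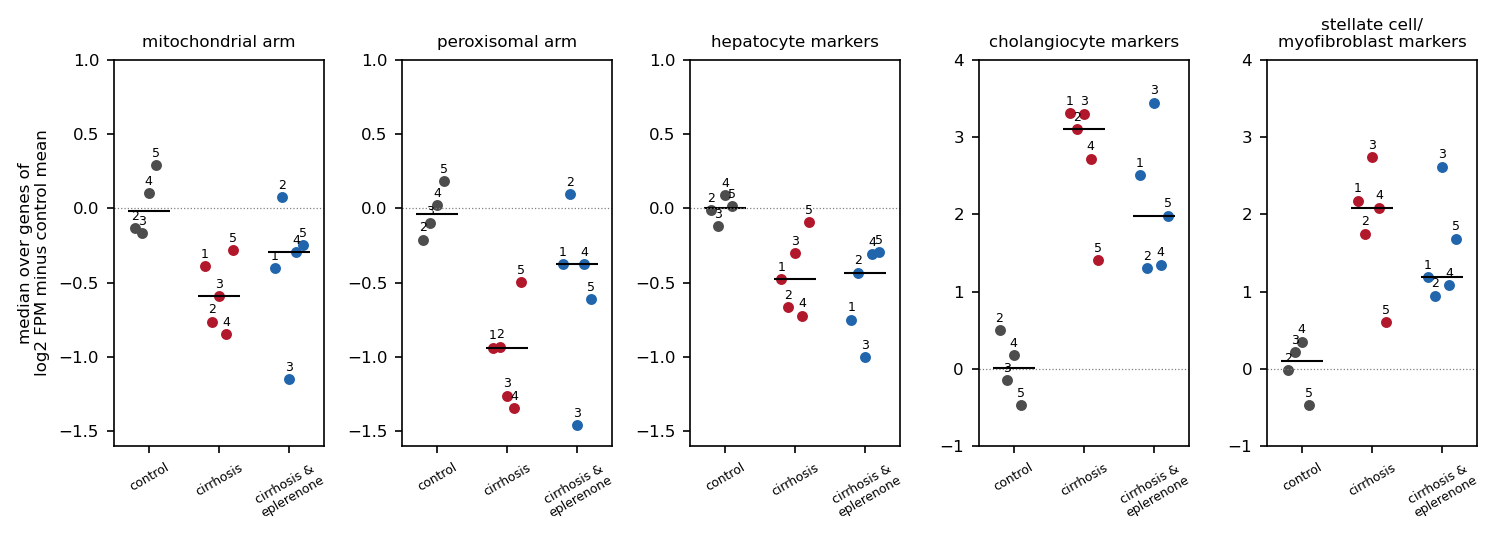
Median over genes of log2 FPM minus the control mean in each liver (numbers give the rat, lines the group median), for the mitochondrial arm, the peroxisomal arm and markers of hepatocytes, cholangiocytes, and stellate cells with myofibroblasts. The vertical scale differs between the first 3 and the last 2 panels, all 5 cirrhosis livers lie below all controls in both arms, and cirrhosis & eplerenone rat 3 is the lowest liver of both arms.

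Eplerenone was given to ask whether blocking the MR changes the cirrhotic liver. No gene of the list was a DEG in cirrhosis & eplerenone against cirrhosis (0 of 40), and over all genes 0.0139% were. DESeq2 alone gave 0 of 40 as well, beside 0.513% of all genes. An unadjusted p below 0.05 in edgeR was found for 7 of 40 genes, all of them higher with eplerenone, beside 14.4% of all genes and 6.77% higher. These were Cpt1a, Abcd3, Acox2, Acox3, Amacr, Ehhadh and Acot12. The log2FC was above 0 in 31 of the 40 genes, beside 51.1% of all genes. The median log2FC was 0.22 in the mitochondrial arm, 0.41 in the peroxisomal arm and 0.18 in the others, beside 0.01 over all genes. The groups overlapped in each of the 40 genes, and 0.957% of all genes had no overlap.

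The largest difference was that of Cpt1a, with a log2FC of 1.47 and an SE of 0.51 (edgeR, unadjusted p = 0.0116, FDR 0.312). Rats 1 and 2 of cirrhosis & eplerenone, with 298 and 273 FPM, lay above all controls, and rat 3, with 33.4 FPM, lay below all cirrhosis livers. Amacr had 328, 1037, 62.7, 311 and 226 FPM, from below the lowest cirrhosis liver to above the highest control. Its log2FC was 1.28 with an SE of 0.53 (edgeR, unadjusted p = 0.0283, FDR 0.316), and it was 0.52 without rat 2. Acox3 had 102, 202, 46.9, 162 and 77.2 FPM and a log2FC of 1.24 with an SE of 0.48 (edgeR, unadjusted p = 0.0217, FDR 0.316).

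Ehhadh had 194, 238, 57.6, 178 and 136 FPM with eplerenone and a log2FC of 0.82 (SE 0.33), and Acot12 had 155, 204, 44.1, 121 and 84.0 FPM and a log2FC of 0.82 (SE 0.32). Acox2 had 366, 615, 173, 489 and 314 FPM (log2FC 0.69, SE 0.28), and Abcd3 had 210, 196, 85.7, 138 and 132 FPM (log2FC 0.62, SE 0.22). In each of these 4 genes rat 3 was the lowest of its group and rats 1 or 2 the highest. Over the 40 genes, rat 3 was the lowest of its group in 34 and rat 2 the highest in 27. Etfb had the lowest log2FC, -0.41 with an SE of 0.27, with 174, 244, 166, 245 and 324 FPM, and Acsl5 had 133, 166, 205, 206 and 227 FPM with a log2FC of -0.08 (SE 0.22). For Scp2, at 632 to 1564 FPM, log2FC was 0.01 with an SE of 0.25.

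When cirrhosis rat 5 and cirrhosis & eplerenone rat 3 were left out together, 14 of the 40 genes were DEG, all higher with eplerenone, beside 9.15% called and 4.45% higher among all genes in that fit. They were Cpt1a, Slc25a20, Acadm, Hadh and Acat1 of the mitochondrial arm, Abcd3, Acox2, Acox3, Amacr, Ehhadh, Hsd17b4 and Pex11a of the peroxisomal arm, and Acsl1 and Acot12. Among them log2FC ranged from 0.55 (Slc25a20, SE 0.16) to 1.90 (Acox3, SE 0.44), and Ehhadh had the lowest FDR, 0.00843 (edgeR). On the first principal component these livers are the cirrhosis liver nearest to control and the eplerenone-treated liver nearest to cirrhosis, so leaving out both widens the difference by construction. With 1 liver left out at a time, 0 of the 40 genes were DEG in each of the 14 fits.

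The animal labels of CCl4-treated rats begin with 15 (cirrhosis rats 1 to 3 and cirrhosis & eplerenone rats 1 and 2) or with 20 (the others), and those of control rats with 13 or 16. What these numbers stand for was not stated, and they cannot be told apart from CCl4 treatment in cirrhosis against control. Within label 15 the median log2FC of eplerenone was 0.57 in the mitochondrial and 0.88 in the peroxisomal arm, and within label 20 it was 0.05 and 0.12. Cpt1a had a log2FC of 2.499 within label 15 and 0.15 within label 20 (unadjusted p of the difference 0.00203, FDR 0.350, edgeR). The difference between the labels had an unadjusted p below 0.05 in 9 of 40 genes, and an FDR below 0.05 in 0 of 14417. At unadjusted p below 0.05 there were 1746 of 14417 genes. Both livers that stood apart carry label 20.

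In cirrhosis & eplerenone against control, 0 of 40 genes were DEG, beside 5.2% of all genes, and without the pair of livers that stood apart 0 of 40, beside 4.86%. Rat 3 of cirrhosis & eplerenone was the liver of its group farthest from control on the first principal component. Leaving it out therefore narrows this difference by construction. With all livers, DESeq2 alone gave 2, beside 10.6%. An unadjusted p below 0.05 in edgeR was found for 8 genes, 7 of them lower, beside 20.5% of all genes and 6.31% lower. The number of DEG was 3 without cirrhosis & eplerenone rat 2, beside 8.86% of all genes in that fit. It was 1 without rat 1 of that group (3.86%) or without cirrhosis rat 5 (7.49%), so none of these counts lay above the share of all genes. The median log2FC was -0.32 in the mitochondrial arm, -0.42 in the peroxisomal arm and -0.33 in the others. Each liver of cirrhosis & eplerenone lay below each control for Etfa (168 to 284 FPM), Scp2 and Acsl1, that is for 3 of 40 genes beside 4.46% of all genes lower without overlap. Acsl1 had 585.5, 1356, 315, 1174 and 686 FPM and a log2FC of -0.97 with an SE of 0.39 and an FDR of 0.162 (edgeR). Etfa had a log2FC of -0.63 with an SE of 0.19 and an FDR of 0.0642 by edgeR and 0.00938 by DESeq2. This comparison and that with cirrhosis share livers and are not independent. The arm medians of the livers were -0.40, 0.07, -1.15, -0.29 and -0.25 for the mitochondrial and -0.37, 0.10, -1.46, -0.37 and -0.61 for the peroxisomal arm in rats 1 to 5, so that all but rat 2 lay below the controls. The hepatocyte marker medians of the same livers were -0.75, -0.43, -0.999, -0.31 and -0.29.

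Among related genes that are not on the list, some were DEG in cirrhosis against control, and the shares of all genes to set beside them are again 20.1% called, 13.4% higher and 6.67% lower. Of 23 other genes listed here as peroxisomal and tested, 9 were DEG, all lower, and the median log2FC of the list was -0.68. They include catalase (Cat, log2FC -1.61, SE 0.47), which breaks down hydrogen peroxide, the glycolate oxidase Hao1 (-1.30), the bile acid conjugating enzyme Baat (-1.03) and the very long-chain acyl-CoA synthetase Slc27a2 (-0.99), besides Acot5, Nudt12, Lonp2, Mpv17 and Pecr. Compartments were assigned by list and were not tested, that of Mpv17 included. Of 14 peroxins, proteins that build the organelle and import its enzymes, 4 were DEG, all lower, among them Pex10 (-0.71), Pex5 (-0.68) and Pex13 (-0.56). The median over the peroxins was -0.41. Among 25 other mitochondrial genes tested, 6 were DEG, a share near that of all genes, and they moved in both directions. Of these, Hsd17b10 (-0.98), Mcee (-0.85) and Acad11 (-0.81) were lower, while Oxct1 (1.497), which uses ketone bodies outside hepatocytes, Acss1 (1.17) and Acot9 (1.11) were higher, and the median was -0.20.

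Of 10 regulators, 2 were DEG, a share near that of all genes (20.1% called, 6.67% lower). These were Ppara (log2FC -2.03, SE 0.45, edgeR FDR 0.00784) and Hnf4a (-0.81, SE 0.24), both lower in cirrhosis. The mean level of Ppara was 8.92 FPM in control livers, 2.18 FPM in cirrhosis livers and 8.22 FPM with eplerenone. Its log2FC of 1.91 for eplerenone was not a DEG (SE 0.44, FDR 0.312 by edgeR and 0.0101 by DESeq2). These means hide the spread between livers. The median over the 10 regulators of log2 FPM relative to control ran from -0.70 (rat 3) to 0.52 (rat 2) in cirrhosis & eplerenone. In cirrhosis it ran from -1.35 to 0.10. In cirrhosis & eplerenone against cirrhosis, 0 genes of these 4 lists were DEG, beside 0.0139% of all genes. An unadjusted p below 0.05 in edgeR was found for 2 of 25 other mitochondrial genes and 3 of 23 other peroxisomal genes. It was found for 1 of 14 peroxins and 2 of 10 regulators, beside 14.4% of all genes.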

How the data were processed

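Liver RNA was sequenced as paired-end poly(A) libraries, 5 labelled per group, and the 14 with a column of counts were used. The authors deposited raw read counts per gene, made by aligning reads to rn6 with HISAT2 (2.1.0) and counting exons of Ensembl genes with featureCounts. Reads that matched several places were counted at each, and use of strand was not stated. Depth was 16157491 to 21574767 counted reads, and intervals and floors cover counting error only.

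Counts were filtered with filterByExpr (edgeR 4.0.16, minimum count 10), scaled by TMM and fitted for 3 groups in 1 model with the quasi-likelihood test of edgeR and the Wald test of DESeq2 (1.42.0) in R 4.3.3, with limma 3.58.1 loaded. Adjustment followed Benjamini and Hochberg and covered all 14417 genes tested. A DEG had an adjusted p below 0.05 in both tools. log2FC and SE (|log2FC| divided by the square root of F) are those of edgeR. The fits were tested on simulated data.

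The genes and lists were chosen with earlier results of these data known. Values in each sample were given for DEG, for the largest rise and fall of each list, for Amacr, and for other members beside them. Of the other lists, DEG were named, except 1 that is not reported here. Replicate numbers name rats and did not pair them: correlations of deviations between equal numbers ranged from -0.33 to 0.19. Alternatives covered scaling, filter, tool, block, label number and livers left out. Decr2, Eci2, a control library and protein sequences were not analysed here.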

Additional observations from a re-analysis of the deposited data

Results flagged for a closer look

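Within-group gaps were checked in 126 groups of 4 or 5 livers, and in 7 of them the highest or lowest liver lay apart by Dixon's ratio of the gap to the whole range on the log2 scale. Chance gives about 1 in 20. In control, Decr1 was lowest in rat 3 (ratio 0.8317), at 100.1 FPM beside 189 to 215 FPM in the others. In cirrhosis, Acat1 was highest in rat 5 (ratio 0.8539), at 311 FPM beside 110.1 to 128 FPM, and Acsl4 was highest in rat 2 (ratio 0.7405), at 234 FPM beside 108 to 132 FPM. The other 4 concern cirrhosis & eplerenone rat 3, the lowest of its group in each. It had 311 FPM of Acaa2 beside 465 to 537 FPM (ratio 0.7381) and 134 FPM of Acadm beside 426 to 641 FPM (ratio 0.7382). It had 182 FPM of Acadvl beside 287 to 344 FPM (ratio 0.7142) and 11.4 FPM of Acsl3 beside 16.3 to 17.1 FPM (ratio 0.8883).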

How the results depend on the processing

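The number of DEG in cirrhosis against control (13, beside 20.1% of all genes) was 12 with DESeq2 size factors in edgeR (20% of all genes) or without the filter (12.2%). It was 10 with total counts (19.5%) or with at least 10 counts in every sample (17.7%). With the replicate number as a block it was 11 (12.1%). The block left 0 DEG of the list in eplerenone against cirrhosis (0% of all genes) and against control (1.86%). Without the pair of livers that stood apart it was 21 (34.1% of all genes), and 14 for eplerenone against cirrhosis (9.15% of all genes, and 0 DEG of the list otherwise). That choice of livers widens both differences by construction. Leaving out 1 liver at a time gave 4 to 19 DEG in cirrhosis against control, 0 in eplerenone against cirrhosis and 0 to 3 in eplerenone against control, where DESeq2 alone gave 2. The cause was not tested. The 3 groups share 1 fit, so a liver outside a comparison can also move its count. Without cirrhosis & eplerenone rat 3, for example, 18 genes were DEG in cirrhosis against control. Total counts moved the median of all genes to 0.28 in cirrhosis and 0.32 in cirrhosis & eplerenone, both against control, and the arm medians in cirrhosis were then -0.33 (mitochondrial) and -0.66 (peroxisomal). Within label 15 the mitochondrial and peroxisomal medians for eplerenone against cirrhosis were 0.57 and 0.88, whereas within label 20 they were 0.05 and 0.12. No median changed sign under these settings. With few reads, as for Abcd2, depth limits the fold.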
